A study of Homo sapiens with 6 samples.

Results

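The genes described here are BCR, ABL1, STAT5A, STAT5B, JAK2, PIM1, PIM2, SOCS2, CISH and OSM, which encode both partners of the BCR-ABL1 fusion, the STAT5 factors and JAK2, and a set of genes that STAT5 is known to switch on. They were matched by gene symbol from a list of pathway members, in a rule that used no measured value but was written with earlier results of these data known, and all 10 were found among the 60609 genes of the count tables. Poly(A) RNA from K562 cells was sequenced in 6 libraries, 3 from cells rescued with wild-type EP400 (WT) and 3 from cells rescued with EP400 that lacks the segment holding the TRRAP subunit (Delta-TRRAP). EP400 is the scaffold and ATPase subunit of the TIP60 chromatin complex, and the question was how loss of the TRRAP contact changes steady-state mRNA. In both groups every endogenous EP400 allele carried the dTAG degron, the rescuing EP400 was expressed from the AAVS1 locus, and the cells received 500 nM dTAGV-1 for 24 h, so that no library came from untreated or unedited cells. All 3 libraries of a group came from a single clone per group, derived from 1 tagged clone, so EP400 genotype and clone cannot be told apart, and a p-value here measures only the spread between libraries of those clones.

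K562 is a line from a patient with chronic myeloid leukaemia in blast crisis. It carries a translocation between chromosomes 9 and 22 that joins BCR to the tyrosine kinase gene ABL1. The fusion kinase is always active and phosphorylates STAT5A and STAT5B, which then enter the nucleus as dimers. In normal blood cells the same step is carried out by JAK2 bound to cytokine receptors. Active STAT5 induces survival genes such as the PIM kinases, and it also induces its own inhibitors, CISH and the SOCS proteins, so the mRNA of CISH and SOCS2 is often read as a record of STAT5 activity. Gene-level counts do not separate reads of the fusion transcript from reads of the normal BCR and ABL1 transcripts, and phosphorylation was not measured.

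STAT dimers bind the palindrome TTCNNNGAA, which reads the same on both strands. It was searched in RefSeq promoter windows on GRCh38.p14 that run from 250 bases before to 50 bases after a gene start. Entries were matched for 8 of the 10 genes, all but SOCS2 and OSM, in 13 windows. Only the CISH window held the motif, and it held it 4 times, whereas 7.66% of all 35116 windows held it at least 1 time and 0.0199% at least 4 times. The 4 matches start 241, 230, 129 and 112 bases before the CISH start. The 250 bases before the start are shown because CISH is also the gene of the 10 with the largest change among those with more than a few reads. They lie on the minus strand at chr3:50611775-50612024, read 5′ to 3′, with the matches in capitals.
CISH: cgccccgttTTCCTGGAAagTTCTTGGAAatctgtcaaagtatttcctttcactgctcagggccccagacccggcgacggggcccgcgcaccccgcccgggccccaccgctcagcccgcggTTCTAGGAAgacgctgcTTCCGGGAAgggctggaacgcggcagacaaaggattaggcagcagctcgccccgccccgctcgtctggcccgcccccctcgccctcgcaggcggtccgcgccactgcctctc
A match is a description of the letters only.

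The libraries held 35076835 to 42616061 counts in genes. The mitochondrial share of these counts was 3.18% to 3.71% over the WT libraries and 5.07%, 5.22% and 6.24% in replicates 1, 2 and 3 of Delta-TRRAP. EP400 itself, counted as endogenous and rescue transcripts together, averaged 5099.9 ± 282 normalized counts (SD, n = 3) in the WT group against 5519.8 ± 1172 in the Delta-TRRAP group, so its level does not check the labels. The labels call the cells lymphoblasts. Among B lymphocyte markers MS4A1 was at 0 in every library, and the 6 B markers summed to 40.0–50.3 normalized counts per WT library and 54.7–70.7 per Delta-TRRAP library. In the same order, 9 erythroid markers summed to 31844–34852 and 59941–66525, with most of the gain in ALAS2 (means of 1252 and 16508) and HBZ (1451 and 10585), while GATA1 (−0.21 on the log2 scale) and HBG1 (−0.43) passed lower. The 5 monocyte markers, nearly all of it LYZ, summed to 8106–8880.4 and 881–942. Megakaryocyte markers, 5 in number and nearly all ITGA2B with GP9, GP1BA and PF4 at 0, summed to 643–704 and 76.4–109. Fibroblast markers, 6 in number with LUM at 0, summed to 35.9–57.5 and 908–952, where COL1A2 made up most of the Delta-TRRAP sum, and 5 T lymphocyte markers, mostly CD3D, to 475–484 and 406–456. The part of these shifts in the results that follow was not tested, and in bulk RNA fewer cells of a type and less RNA per cell cannot be told apart.

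In Delta-TRRAP the pathway genes moved in both directions. STAT5A fell 2.06-fold while STAT5B fell slightly, and the feedback genes CISH and SOCS2 and the kinase PIM1 rose. PIM2 fell. JAK2, BCR and ABL1 did not pass the test. All 10 genes were tested, and 7 passed at an adjusted p of 0.01 or less (edgeR quasi-likelihood test, Benjamini-Hochberg adjustment over 19114 genes), 4 of them higher and 3 lower, where 58.6% of all tested genes passed, 29.6% higher and 28.9% lower. With a change of at least 2-fold required as well, 3 genes were called, CISH and OSM higher and STAT5A lower, where the share over all tested genes was 22.5% (16.2% higher and 6.34% lower). OSM reached the mean normalized count needed for testing only through its Delta-TRRAP libraries. For 8 of the 10 genes the WT and Delta-TRRAP libraries did not overlap, as for 71.1% of all tested genes (36.0% with Delta-TRRAP higher and 35.1% with it lower). The counts over the 10 genes were thus near the background. The median log2 fold change, Delta-TRRAP over WT, was −0.025 over the 10 genes and 0.0057 over all genes tested. With scaling to library size alone 5 of the 10 genes passed higher and 2 lower, and 2 were called higher and 0 lower. That scaling raised the median over all tested genes to 0.17 and the number of genes called from 4307 to 4521. Shares by direction over all genes were not taken under it.

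**Figure D1:**
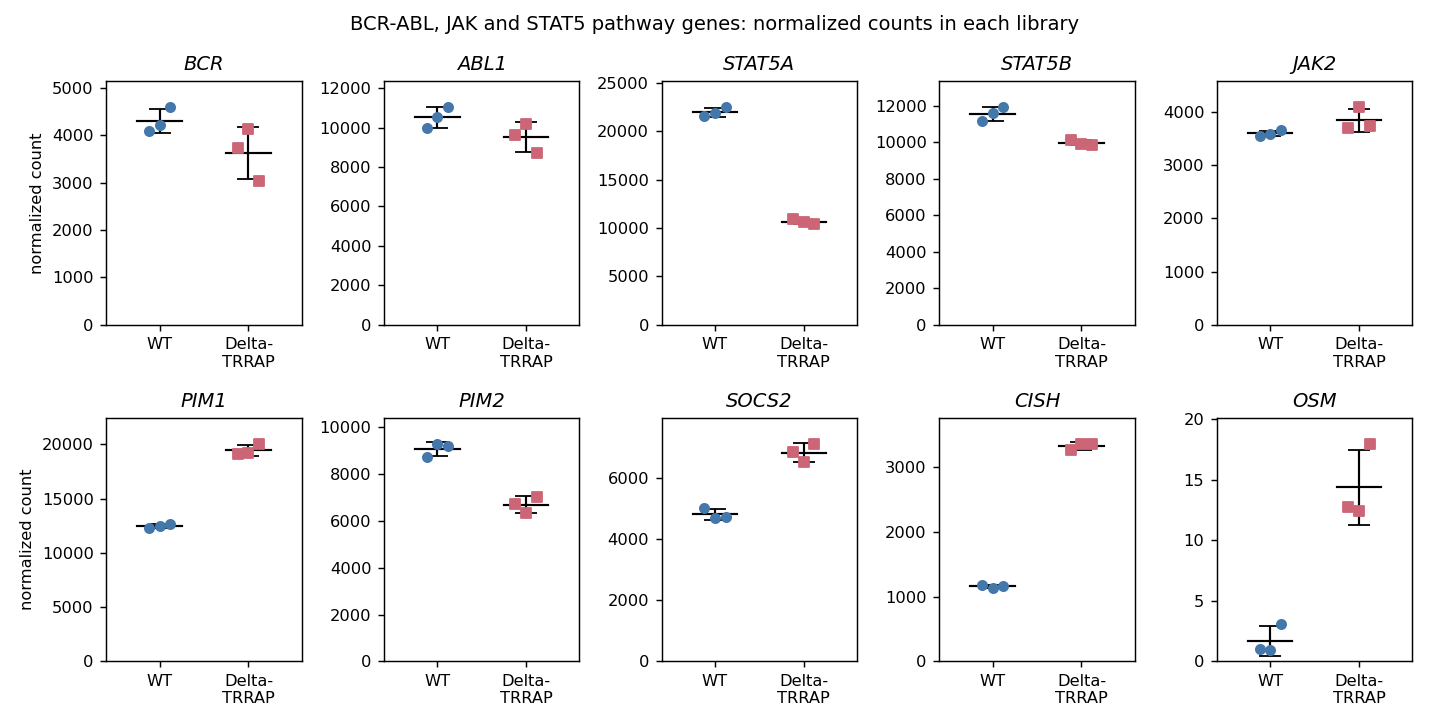
Normalized counts of the 10 genes in each of the 3 WT (circles) and 3 Delta-TRRAP (squares) libraries, with each vertical axis starting at 0. Horizontal lines are means and bars are the SD, and the groups are apart in every panel but those of BCR and ABL1.

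BCR encodes the partner that gives the fusion kinase its oligomerization domain (ENSG00000186716.21, chr22:23179704-23318037, plus strand, hg38). Its normalized counts, which are counts scaled to a common library size with TMM factors, were 4086, 4224 and 4593 in WT replicates 1 to 3 and 3728, 4125 and 3025 in Delta-TRRAP. Delta-TRRAP replicate 3 was the lowest library and replicate 2 lay within the WT range, so the groups overlapped. The means were 4301 ± 262 and 3626 ± 557 (SD, n = 3 each), a log2 fold change of −0.25 ± 0.086 (SE) with an adjusted p of 0.0192. Of the 6734 stretches of 50 bases in the longest BCR transcript, 21.1% also occur in other genes, so the BCR count may miss some of its reads.

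ABL1 encodes the kinase part of the fusion (ENSG00000097007.19, chr9:130713043-130887675, plus strand). It had normalized counts of 9987, 10520.1 and 11033 in WT and 9644, 10189 and 8698 in Delta-TRRAP. Again replicate 3 was the lowest library and replicate 2 lay within the WT range. On the log2 scale the difference was −0.14 ± 0.061 (adjusted p = 0.0481). Without Delta-TRRAP replicate 2 both genes passed, BCR at −0.35 (adjusted p = 0.000199) and ABL1 at −0.20 (adjusted p = 0.00633), and with scaling to library size alone ABL1 turned to 0.013 (adjusted p = 0.868).

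The count ratio of ABL1 to BCR within a library needs no scaling between libraries. It was 2.44, 2.49 and 2.40 in WT and 2.59, 2.47 and 2.88 in Delta-TRRAP. Replicate 2 of Delta-TRRAP lay below the highest WT library, and an exact two-sided permutation test gave p = 0.2 (0.2 after adjustment over 6 ratios). With 3 libraries against 3 the smallest p this test can give is 0.1.

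STAT5A and STAT5B are neighbours on chromosome 17 and encode near-identical transcription factors. STAT5A (ENSG00000126561.16, chr17:42287547-42311943, plus strand) had normalized counts of 21564, 21869.6 and 22505 in WT and 10893, 10626 and 10463 in Delta-TRRAP. The highest Delta-TRRAP library was thus far below the lowest WT library, and the spread within each group was small. STAT5A fell 2.06-fold, from 21979.5 ± 480.2 to 10661 ± 217, a log2 fold change of −1.04 ± 0.048 with an adjusted p of 4.88e-11. The fall passed the test under every alternative, but with scaling to library size alone it was −0.89, short of 2-fold.

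STAT5B (ENSG00000173757.9, chr17:42199176-42288633, minus strand) had 11167, 11576 and 11916 in WT and 10131, 9922 and 9851 in Delta-TRRAP. The groups were apart, and STAT5B fell by 0.21 ± 0.048 on the log2 scale (adjusted p = 0.00112). That fall did not pass with scaling to library size alone (−0.056, adjusted p = 0.324). STAT5A shares 11.9% of its stretches of 50 bases with STAT5B, and STAT5B shares 8.03% with other genes.

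The balance of the STAT5 pair shifted. WT libraries held 1.93, 1.89 and 1.89 STAT5A counts per STAT5B count, and Delta-TRRAP libraries held 1.08, 1.07 and 1.06. The means were 1.90 ± 0.024 and 1.07 ± 0.0067 (SD, n = 3), and the exact permutation test gave p = 0.1, the smallest it can give (0.12 after adjustment over the 6 ratios). The genes point away from each other and overlap by 1087 bases at their starts, which lie 1.09 kb apart, and the counting used strand. On the far side of STAT5A lies STAT3, the third STAT gene of this stretch, whose end is 1.38 kb from the end of STAT5A. STAT3 rose from 7631 ± 271 to 10091 ± 403 normalized counts, a log2 fold change of 0.40 ± 0.051 with an adjusted p of 4.69e-06. There were 0.347 ± 0.0054 STAT3 counts per STAT5A count in WT and 0.946 ± 0.025 in Delta-TRRAP (exact permutation p = 0.1, adjusted 0.12).

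**Figure D2:**
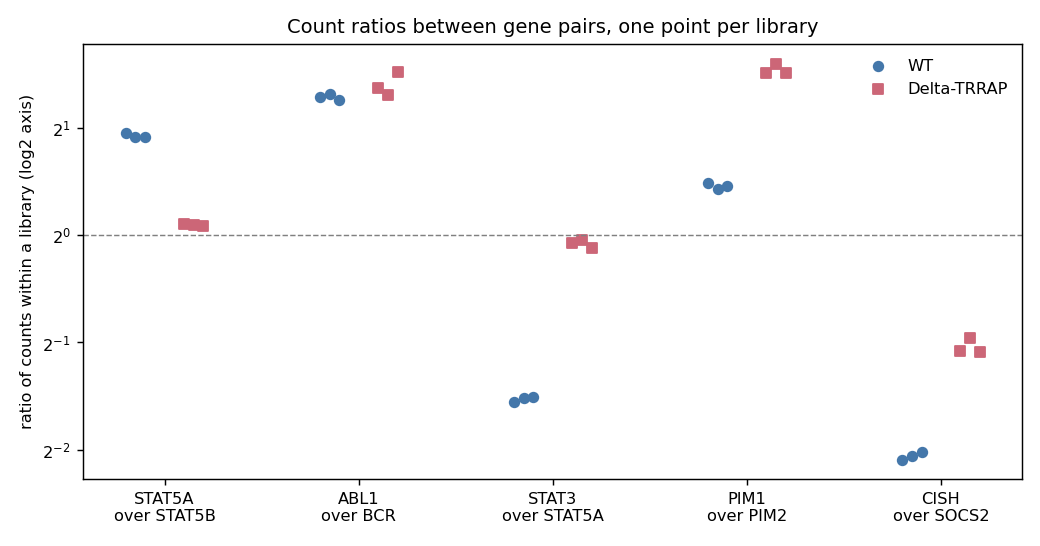
Count ratios of 5 gene pairs in each library on a log2 axis, WT as circles and Delta-TRRAP as squares. The groups are apart for 4 of the pairs and overlap for ABL1 over BCR, and the STAT5A to STAT5B ratio moved from 1.90 to 1.07.

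JAK2 encodes the kinase bound to the erythropoietin receptor and its relatives (ENSG00000096968.13, chr9:4984390-5129948, plus strand). Its normalized counts were 3557, 3590.0 and 3657 in WT and 3703, 4094 and 3737 in Delta-TRRAP. Each Delta-TRRAP library was above each WT library, but replicates 1 and 3 by little. The log2 fold change of 0.094 ± 0.052 did not pass (adjusted p = 0.121), except with scaling to library size alone (0.25, adjusted p = 0.000577).

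The PIM genes encode serine/threonine kinases that protect cells from apoptosis. PIM1 (ENSG00000137193.14, chr6:37170152-37175428, plus strand) had normalized counts of 12271, 12512 and 12675 in WT and 19116, 19169 and 20043 in Delta-TRRAP. It rose 1.56-fold, a log2 fold change of 0.64 ± 0.048 with an adjusted p of 1.28e-08. PIM2 (ENSG00000102096.9, chrX:48913182-48919024, minus strand) went the other way, with 8739, 9283 and 9205 in WT and 6696, 6335 and 7035 in Delta-TRRAP.

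PIM2 was 1.36-fold lower, a log2 fold change of −0.44 ± 0.053 with an adjusted p of 2.54e-06. Neither gene's groups overlapped. There were 1.38 ± 0.028 PIM1 counts per PIM2 count in WT and 2.91 ± 0.101 in Delta-TRRAP (exact permutation p = 0.1, adjusted 0.12). Their relative PIM3, from the list of STAT5 targets, fell by 0.50 on the log2 scale (adjusted p = 4.56e-06).

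CISH and SOCS2 encode feedback inhibitors that bind phosphorylated cytokine receptors. CISH (ENSG00000114737.15, chr3:50606489-50611774, minus strand), the gene whose promoter letters are printed above, had normalized counts of 1181, 1127 and 1164 in WT and 3254, 3354 and 3353 in Delta-TRRAP. The libraries within a group lay close together and the groups far apart. CISH rose 2.87-fold, from 1157 ± 27.9 to 3321 ± 57.3, a log2 fold change of 1.52 ± 0.050 with an adjusted p of 9.32e-13.

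SOCS2 (ENSG00000120833.14, chr12:93569814-93583487, plus strand) had 5034, 4694 and 4719 in WT and 6866, 6519 and 7126 in Delta-TRRAP. It rose 1.42-fold, a log2 fold change of 0.51 ± 0.053 with an adjusted p of 5.04e-07, and its groups did not overlap. CISH rose more than SOCS2, with 0.240 ± 0.0060 CISH counts per SOCS2 count in WT and 0.486 ± 0.024 in Delta-TRRAP (exact permutation p = 0.1, adjusted 0.12). SOCS2-AS1, a transcript of the opposite strand that overlaps SOCS2 by 1955 bases and was picked after its values were seen, rose from 137 ± 9.15 to 438 ± 23.3 normalized counts, a log2 fold change of 1.68 ± 0.090 with an adjusted p of 2.68e-10.

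OSM encodes oncostatin M, a cytokine of the interleukin-6 family whose gene is a known STAT5 target in blood cells (ENSG00000099985.4, chr22:30262829-30266851, minus strand). It was close to absent. The raw counts were 1, 1 and 3 in WT and 13, 13 and 17 in Delta-TRRAP. The groups did not overlap, but they rest on 5 and 43 reads in all. The mean was 1.69 normalized counts in WT and 14.4 in Delta-TRRAP. OSM thus reached the mean of 5 needed for testing only through Delta-TRRAP. Its call and its lack of overlap are therefore no separate support for a rise. The ratio of the normalized totals was 8.52, with an exact 95% interval of 3.38 to 27.5 that covers counting error only, and the fit gave a log2 fold change of 3.00 ± 0.51 (adjusted p = 7.96e-05). LIF, a cytokine of the same family whose gene starts 20.1 kb away, was also picked after its values were seen. It had raw counts of 0, 2 and 1 in WT and 31, 19 and 25 in Delta-TRRAP (fitted log2 fold change 4.47 ± 0.54, adjusted p = 2.54e-06). Like OSM, LIF reached the mean of 5 needed for testing only through Delta-TRRAP. Its fitted change and adjusted p are therefore no separate support for a rise.

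Per kilobase of annotated exon the 10 genes spanned a wide range of levels. In WT the order of the mean normalized counts per kb was PIM1 (4121), STAT5A (3442), PIM2 (3287), ABL1 (1504), STAT5B (954), SOCS2 (743), JAK2 (455), BCR (352), CISH (229) and OSM (0.795). In Delta-TRRAP it was PIM1 (6417), PIM2 (2423), STAT5A (1669.7), ABL1 (1360.4), SOCS2 (1056), STAT5B (823), CISH (657), JAK2 (486), BCR (296) and OSM (6.76). STAT5A thus moved from the second to the third place, STAT5B from the fifth to the sixth, and CISH from the ninth to the seventh, above JAK2 and BCR. No 2 neighbours in either order had overlapping ranges over the 3 libraries, but the order depends on the lengths used. With the longest transcript in place of all exons, 4 of the 10 genes kept their WT place and STAT5A stood above PIM1.

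**Figure D3:**
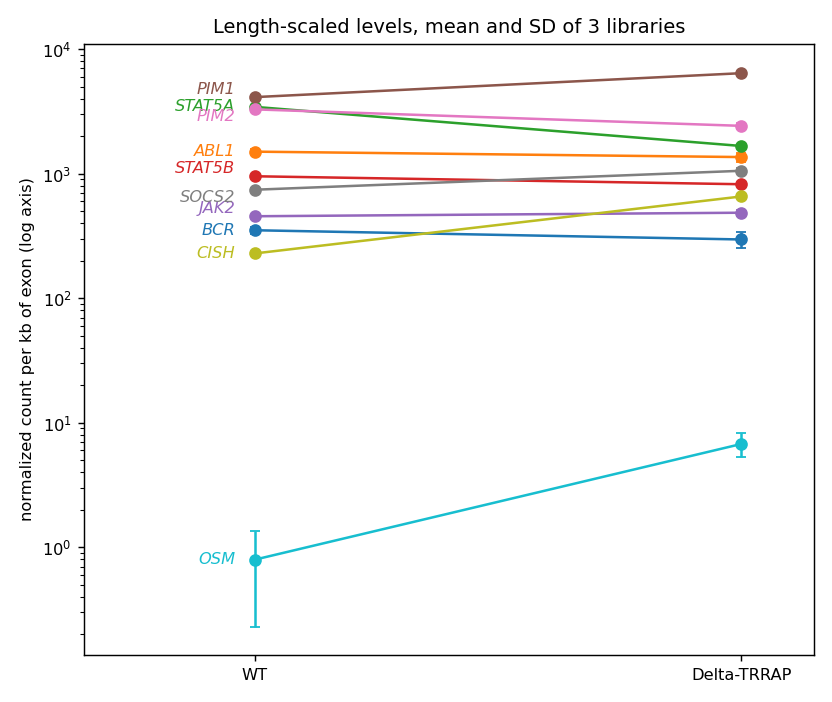
Mean normalized count per kb of exon in WT and Delta-TRRAP on a log axis, with bars for the SD of 3 libraries. The line of STAT5A falls from 3442 to 1669.7, the line of CISH climbs from 229 to 657 past JAK2 and BCR, and OSM stays far below the rest.

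Around these genes, 85 further genes of the pathway in 7 lists gave 76 that were tested. Of those, 51 passed, 16 higher and 35 lower, where 58.6% of all tested genes passed, 29.6% higher and 28.9% lower. The median log2 fold change was −0.18 against 0.0057 over all tested genes. The more abundant genes of the whole data also leaned lower, with a median of −0.092 where a mean normalized count of at least 50 was required. With scaling to library size alone the split was 26 higher and 23 lower, with a median of −0.021. Under that scaling the median of all tested genes was 0.17, so the median of the list genes stayed below it. A change of at least 2-fold was called for 19 genes, 8 higher and 11 lower, which became 9 and 7 with library size alone. The share called, 19 of 76, is close to the 22.5% over all genes. By direction it differed, with 8 higher and 11 lower here, where 16.2% of all tested genes were called higher and 6.34% lower.

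**Figure D4:**
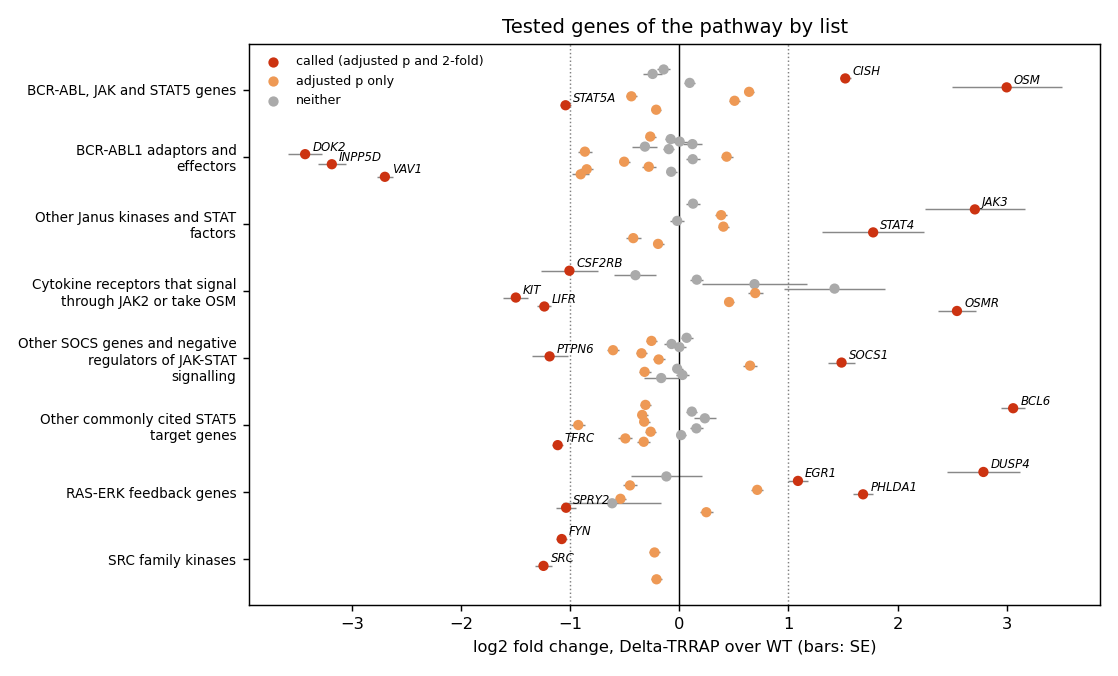
Log2 fold changes, Delta-TRRAP over WT, of the 10 genes and of the tested genes of each pathway list, with bars for the SE and dotted lines at 2-fold. Red points passed on both adjusted p and 2-fold, orange points on adjusted p only and grey points on neither, and the 3 leftmost points are DOK2, INPP5D and VAV1.

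The adaptors and effectors that BCR-ABL1 recruits passed lower more often than higher. All 17 were tested, 9 passed lower and 1 higher (28.9% and 29.6% of all tested genes), with a median of −0.28, and with library size alone the split was 7 and 3. The 3 called genes, all lower (6.34% of all tested genes were called lower), act mainly in blood cells. DOK2, an adaptor that restrains RAS, fell from 216 ± 15.1 to 19.9 ± 3.98 normalized counts (log2 fold change −3.43 ± 0.16, adjusted p = 4.98e-11). INPP5D, the inositol phosphatase SHIP1, fell from 291 ± 12.3 to 31.9 ± 2.82 (−3.19 ± 0.13, adjusted p = 7.66e-12). VAV1, an exchange factor for RAC, fell from 1118 ± 35.1 to 172 ± 10.7 (−2.70 ± 0.072, adjusted p = 8.96e-14). CRKL, a direct substrate of the fusion kinase and the most abundant gene of the list, had 21975 ± 978 and 20546 ± 668 and did not pass (adjusted p = 0.111).

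The other Janus kinases and STAT factors had 4 genes that passed higher and 2 that passed lower out of 8 (29.6% and 28.9% of all tested genes). The median was 0.25, and with library size alone the split was 5 and 1. STAT3, given above, was the most abundant. The 2 called genes, JAK3 and STAT4, were both higher (16.2% of all tested genes were called higher). They rested on few reads, 8 in WT and 55 in Delta-TRRAP for JAK3 (ratio 6.81, exact 95% interval 3.22 to 16.5). STAT4 had 15 and 53 (3.50, 1.94 to 6.68). JAK3 reached the mean of 5 needed for testing only through Delta-TRRAP, with 2.69 normalized counts in WT and 18.1 in Delta-TRRAP.

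Among the cytokine receptors that work through JAK2 or take OSM, with KIT listed beside them, 10 of 14 were tested. Of these 3 passed higher and 3 lower (29.6% and 28.9% of all tested genes), which became 5 and 3 with library size alone. The median was 0.31. CSF2RA and IL3RA were listed at 0 in every library. They lie in a region that the annotation holds on both X and Y, where reads that map to both places are not counted. EPOR, the erythropoietin receptor, did not pass (0.16 ± 0.061, adjusted p = 0.0318).

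The receptors for OSM and LIF moved in opposite directions. OSMR, the specific OSM receptor chain, had 29.7, 51.1 and 62.6 normalized counts in WT and 271, 316 and 251 in Delta-TRRAP. It rose 5.83-fold (log2 fold change 2.54 ± 0.17, adjusted p = 4.17e-09). LIFR, the chain that LIF and OSM both use, fell from 5478 ± 171 to 2321 ± 224 (−1.24 ± 0.064, adjusted p = 1.69e-10). IL6ST, the chain shared by both receptors, rose by 0.69 ± 0.068 (adjusted p = 2.57e-07). LIFR remained the more abundant of the pair by counts, with 0.00867 ± 0.00281 OSMR counts per LIFR count in WT and 0.120 ± 0.0033 in Delta-TRRAP (exact permutation p = 0.1, adjusted 0.12).

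KIT, the receptor of stem cell factor, fell from 226 ± 10.3 to 80.2 ± 9.30 (−1.5 ± 0.12, adjusted p = 1.65e-08). LEPR, the leptin receptor and the most abundant of the list, rose from 8814 ± 115 to 12086 ± 406 (0.46 ± 0.048, adjusted p = 6.46e-07). The third gene called lower was CSF2RB (30.7 and 15.2 normalized counts, adjusted p = 0.00285), and DESeq2 called 2 of the list lower instead of 3. Over all tested genes 6.34% were called lower.

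The other SOCS genes and negative regulators split. All 14 were tested, and 2 passed higher and 6 lower (29.6% and 28.9% of all tested genes). The median was −0.12. With library size alone 3 passed each way, with a median of 0.038 where that of all tested genes was 0.17. Both that passed higher were SOCS genes of the cytokine-induced kind. SOCS1 rose from 62.0 ± 4.0 to 174 ± 7.27 normalized counts (1.49 ± 0.12, adjusted p = 3.36e-08), and SOCS3 from 455 ± 23.7 to 713 ± 11.3 (0.65 ± 0.065, adjusted p = 3.42e-07). SOCS5 passed lower (−0.32, adjusted p = 8.69e-05), and SOCS4, SOCS6 and SOCS7 did not pass, so the SOCS family, CISH and SOCS2 included, had 4 genes that rose, 1 that fell and 3 that did not pass. PTPN6 and PTPN1, phosphatases that act on Janus kinases, fell, PTPN6, known as SHP1, from 88.7 ± 5.73 to 38.9 ± 6.58 (−1.19 ± 0.17, adjusted p = 1.15e-05) and PTPN1, the most abundant of the list, from 6019 ± 382 to 3948 ± 146 (−0.61 ± 0.056, adjusted p = 1.32e-07).

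The other commonly cited STAT5 targets passed lower more often than higher, although not under every scaling. Of 14 genes 13 were tested, and 8 passed lower and 1 higher (28.9% and 29.6% of all tested genes), with a median of −0.31. With library size alone 4 passed lower and 5 higher. The list median was then −0.15, where that of all tested genes was 0.17, against 0.0057 with TMM factors. The gene that passed higher with TMM factors was BCL6, a transcriptional repressor that STAT5 is known to hold down rather than switch on. It had 57.4, 54.0 and 51.3 normalized counts in WT and 415, 463 and 482 in Delta-TRRAP, a rise of 8.34-fold (3.06 ± 0.11, adjusted p = 2.45e-12). TFRC, the transferrin receptor, fell from 193716 ± 1923 to 89385 ± 4322 (−1.12 ± 0.053, adjusted p = 6.25e-11). The survival genes BCL2L1 and MCL1 passed lower, at −0.31 and −0.26, and MYC did not pass (0.016 ± 0.048, adjusted p = 0.786).

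The motif search gave BCL6 as another gene with 4 matches to TTCNNNGAA, among the 6 genes of the whole RefSeq table that have a window with at least 4. They read TTCCGAGAA, starting 28 bases before the BCL6 start, TTCTTAGAA, starting 5 bases before it, and TTCTTAGAA and TTCTAGGAA after it. Over the pathway lists 8 of the 65 genes with an entry had a match in any window, 12.3% against 9.38% of the 27305 genes in the table. The repeats of the motif in CISH and BCL6 were noticed after their values were known.

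The RAS-ERK feedback genes, a readout of another arm of BCR-ABL1 signalling, had 5 genes that passed higher and 3 lower out of 10 (29.6% and 28.9% of all tested genes). The median was 0.064, and 0.22 with library size alone, where that of all tested genes was 0.17. PHLDA1 rose from 138 ± 16.0 to 442 ± 8.25 (1.68 ± 0.093, adjusted p = 3.70e-10). EGR1, an immediate early transcription factor, rose from 8301 ± 1400.3 to 17631 ± 788 (1.09 ± 0.088, adjusted p = 2.80e-08). DUSP4, an ERK phosphatase, was called on 15 and 107 reads (ratio 7.06, exact 95% interval 4.10 to 13.1). SPRY2, a RAS pathway inhibitor, fell from 391 ± 27.9 to 190.0 ± 16.3 (−1.04 ± 0.092, adjusted p = 8.78e-08).

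The SRC family kinases, which act beside BCR-ABL1, were lower where they could be tested. All 4 tested genes of 8 passed lower, as did 28.9% of all tested genes, with a median of −0.65, and 2 of them passed with library size alone. SRC fell from 601 ± 35.8 to 253 ± 13.4 (−1.25 ± 0.078, adjusted p = 1.50e-09) and FYN from 2733 ± 48.0 to 1294 ± 3.15 (−1.08 ± 0.048, adjusted p = 3.41e-11). YES1, the most abundant, fell from 11629.9 ± 417 to 10056 ± 327 (−0.21 ± 0.050, adjusted p = 0.00174), and LYN by 0.23 on the log2 scale (adjusted p = 0.000831). DOK2, INPP5D, VAV1, CRKL, STAT3, OSMR, KIT, LIFR, LEPR, SOCS1, PTPN6, PTPN1, BCL6, TFRC, PHLDA1, EGR1, SPRY2, SRC, FYN and YES1 were named by a rule on calls and levels, and the other list genes after their values were seen.

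Because clones of an aneuploid line can differ in copy number, each gene was set beside the tested genes that start within 1 Mb of it. The median log2 fold change of these neighbours was −0.092 over 70 genes around STAT5A and the same around STAT5B, and 7.14% of the neighbours of STAT5A lay below it. It was −0.11 over 40 genes around CISH, of which 87.5% lay below CISH, and 0.086 over 40 genes around OSM, of which 97.5% lay below OSM. STAT5A and CISH thus stood toward the end of their neighbourhoods. OSM was tested only through its Delta-TRRAP libraries, so its place is no separate support for a rise.

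PIM1, by contrast, lay near the middle of its 24 neighbours, whose median was 0.39, with 54.2% below it. SOCS2 stood among 16 neighbours with a median of −0.12, with 56.2% below it, and PIM2 among 54 with a median of 0.18, with 20.4% below it. The 18 neighbours of JAK2 had a median of 0.49, above JAK2 itself at 0.094. Some of them are pseudogenes near the floor that overlap JAK2 on its own strand, such as MTND4P14 and IGHEP2 with mean normalized counts of 7.27 and 5.87.

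For BCR and ABL1, the partners of the translocation, the neighbours were read on each side of the gene start. The position of the break within each gene was not used. Around BCR the 10 neighbours at lower coordinates had a median of 0.73 and the 14 at higher coordinates 0.16, with 0.40 over all 24. Several were near the floor, such as IGLV7-46, RAB36 and BCRP8 with mean normalized counts of 16.0, 10.5 and 7.11. Of the most abundant, PRAME at lower coordinates was at 0.60, and CABIN1 and SMARCB1 at higher coordinates were at −0.099 and −0.26. Around ABL1 the 12 at lower coordinates had a median of −0.40 and the 9 at higher coordinates 0.11, with 0.020 over all 21. The neighbours of 3 genes, BCR, JAK2 and PIM1, had a median at least 0.3 away from 0, and none did within 2 Mb. Copy number was not measured, and its part in the changes was not tested.

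**Figure D5:**
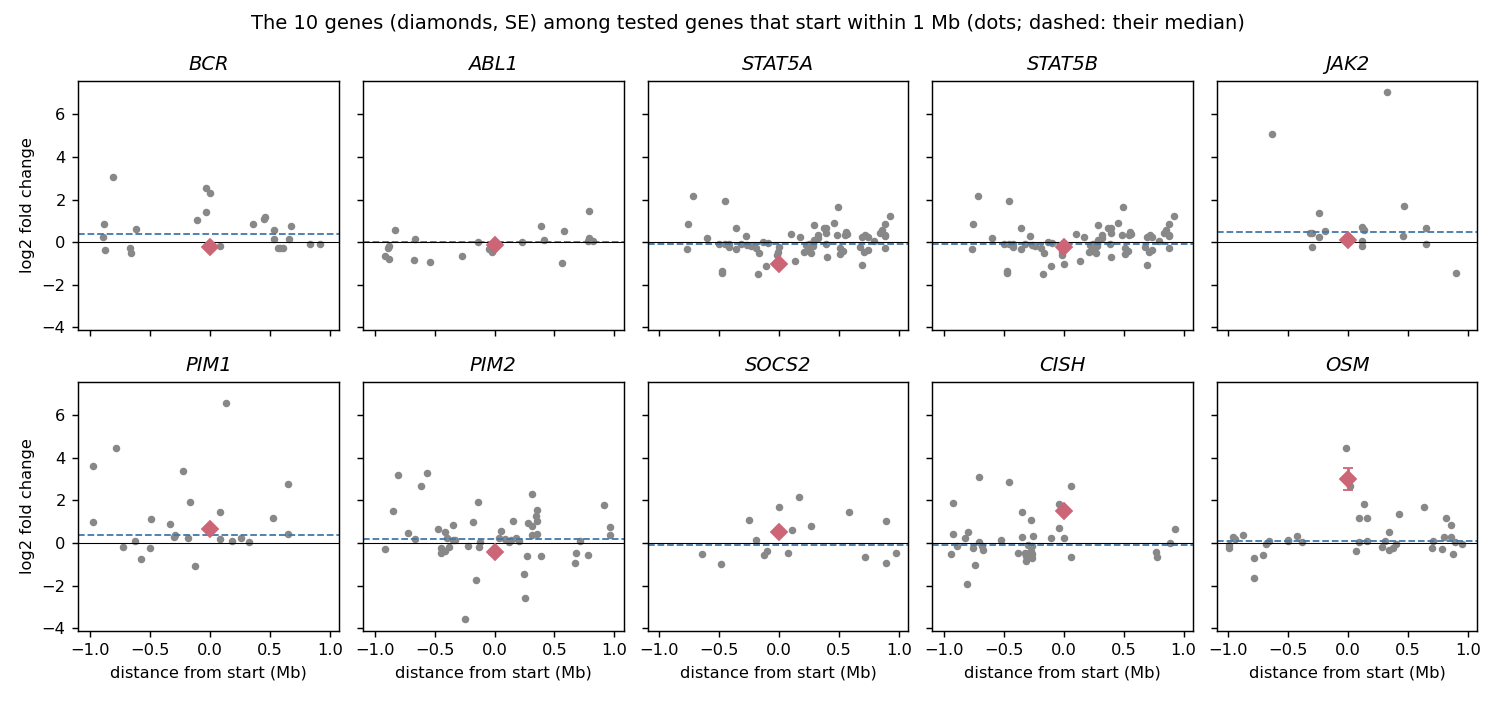
Log2 fold changes of each gene (diamond, with SE) and of the tested genes that start within 1 Mb (dots) against the distance between starts in Mb, with a dashed line at the median of the dots. STAT5A at −1.04 and CISH at 1.52 stand away from their dashed lines at −0.092 and −0.11, whereas PIM1 at 0.64 lies near its line at 0.39.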

How the data were processed

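Poly(A) RNA of 6 libraries (3 WT, 3 Delta-TRRAP) was sequenced. The authors aligned the reads to hg38 with STAR, counted them per gene with HTSeq 2.0.2 by strand, and deposited the raw counts, in which reads that map to several genes are left out. The deposited tables of the whole series held the authors' own DESeq2 comparison and 3 columns of another condition, and were not used here. Counts were tested in R 4.3.3 with edgeR 4.0.16 (TMM factors, glmQLFit and glmQLFTest, group as the only term) over the 19114 of 34998 detected genes whose mean normalized count reached 5, after checks on simulated data. Genes with an adjusted p (Benjamini-Hochberg) no higher than 0.01 passed, and those that also changed at least 2-fold were called. SEs were the log2 fold change divided by the square root of F.

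Alternatives were DESeq2 1.42.0, RLE, upper quartile and library size scaling, other filters and thresholds, a replicate block, and leaving out each library. Positions and exon lengths came from GENCODE 44, whose IDs matched 19041 of the tested genes. The 10 genes, the pathway lists and the marker lists were chosen with earlier results of these data known. Named from each list were its called genes whose mean normalized count reached 50, at most 3 by size of change, and its most abundant gene. Library totals ranged from 35076835 to 42616061 counts, so only the least abundant genes were limited by depth, and intervals on reads cover counting error only. No 2 libraries agreed within sampling noise (chi-square per gene 4.75 to 15.9). The labels name no batch.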

Additional observations from a re-analysis of the deposited data

How the results depend on the processing

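Over the 10 genes, 123 of 129 alternative values kept the direction and the side of the adjusted p threshold. Scaling to library size alone shifted the median log2 fold change of all genes from 0.0057 to 0.17. Under it ABL1 turned to 0.013, STAT5B was −0.056 and no longer passed, JAK2 was 0.25 and passed, and 2 of the 10 genes were called. Without a filter on low counts BCR passed at −0.25 (adjusted p = 5.97e-05), and OSM had no value with a mean of at least 50. Leaving out each library in turn gave −0.35 to −0.13 for BCR and −0.20 to −0.084 for ABL1, both passing only without Delta-TRRAP replicate 2, and 3 called genes of the 10 each time. The genes called numbered 4307 in all, 4029 to 4287 without 1 library, 1969 with a mean of at least 50, 6802 at 1.5-fold and 11195 on adjusted p alone, where 7 of the 10 genes and 51 pathway genes passed. The pathway genes called, 19, were 17 to 20 without 1 library. With the longest transcript 4 genes kept their WT place by level. Within 2 Mb the neighbours of 0 genes had a median at least 0.3 away from 0, and within 0.5 Mb those of 4. The cause of these changes was not tested.

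Libraries with the same replicate number did not deviate together over all tested genes (r of −0.0108, −0.035 and −0.0241). A shared batch that touched few genes would not show in these values, and the labels do not say whether the numbers pair libraries. A fit with the replicate number as a block called 4218 genes and changed no call among the 10. OSM, JAK3, STAT4 and DUSP4 are limited by depth.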

Other observations

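Some genes of the pathway lists had too few reads to be tested. BLK, a SRC family kinase of B cells, had 0 reads in WT and 11 in Delta-TRRAP, summed over 3 libraries each. IL2RA, an interleukin-2 receptor chain and a STAT5 target in T cells, had 0 and 6. LCK, the SRC family kinase of T cells, had 7 and 1, FGR had 1 and 4, and PRLR, the prolactin receptor, had 0 and 1.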
